A study of Homo sapiens with 6 samples.

Results

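The translation initiation and elongation factor genes are 51 of the 61860 genes in the deposited count table, and each of the 51 was found by matching its symbol to an Ensembl identifier. They encode the eIF1 to eIF6 initiation factors, the eEF1 and eEF2 elongation factors, the kinases that phosphorylate eIF2, the subunits that direct its dephosphorylation, and inhibitors of cap binding. The rule for the list is gene name and function and uses no measured value, although the list was drawn up with earlier results of these data known. RNA was sequenced from 5637, an established human bladder cancer cell line, in 3 libraries labelled siYTHDC1 and 3 labelled siNC, the control. YTHDC1 is a nuclear reader of N6-methyladenosine in RNA, and the study's title places it with the glucose transporter GLUT3 and RNF183. The treatment label names a transfection and an infection and the sample description names a plasmid, so the reagent used is unclear. Both groups share the line, the treatment label and the culture medium with serum. Separate cultures are not stated for the replicates, so the p-values cover the spread among 6 libraries, and that spread may be technical.

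Protein synthesis starts when eIF2 carries the initiator tRNA to the small ribosomal subunit, where eIF1, eIF1A and eIF3 hold the complex open for scanning, while the cap-binding complex eIF4F recruits the mRNA. eIF5 and eIF5B then complete start-site selection and subunit joining, eIF2B reloads eIF2 with GTP, and eEF1 and eEF2 drive elongation. Stress kinases shut initiation down by phosphorylating eIF2 alpha, which blocks eIF2B and favours translation of ATF4. The mTORC1 kinase acts at the cap, by phosphorylating the 4E-binding proteins that sequester eIF4E.

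Total counts were 33223480 to 34858457 in the siYTHDC1 libraries and 34628360 to 35607577 in the siNC libraries. The targeted gene did not separate the labels: YTHDC1 had 161, 18 and 14 counts in the siYTHDC1 libraries and 50, 786 and 55 counts in the siNC libraries. It was fitted at -2.20 ± 0.69 on the log2 scale (SE, edgeR adjusted p = 0.00864), and at 0.31 (edgeR adjusted p = 0.691) without siNC replicate 2. Without siYTHDC1 replicate 2 the value was -1.77 (edgeR adjusted p = 0.0666). The YTHDC1 row was thinly counted, at 0.264 CPM per kb of exon in siYTHDC1 and 1.22 in siNC libraries. The source of these low counts was not tested, so the row is weak evidence on the knockdown or on the labels. The groups below are therefore the libraries so labelled, and every direction rests on those labels. All 10 urothelial and epithelial markers checked averaged at least 1 CPM, while CD3E and CD68 of the immune markers and DCN of the fibroblast markers had 0 counts in each library. The summed level of the 10 epithelial markers was 6620 to 6740 CPM in the siYTHDC1 libraries and 11700 to 11900 CPM in the siNC libraries. The lower sum lay in the abundant keratin genes, such as KRT19 (2570 to 2640 CPM in siYTHDC1 and 4350 to 4520 CPM in siNC), and GATA3 was lower too. EPCAM (199 to 201 CPM in siYTHDC1 and 179 to 184 CPM in siNC) and TP63 (227 to 236 CPM in siYTHDC1 and 196 to 210 CPM in siNC) were higher in each siYTHDC1 library, and CDH1 overlapped (236 to 244 CPM in siYTHDC1 and 238 to 243 CPM in siNC). The 6 fibroblast markers, 2 of them averaging at least 1 CPM, summed to 92.3 to 97.1 CPM in siYTHDC1 and 78.9 to 84.9 CPM in siNC. The 6 immune markers, 1 at that level, summed to 4.71 to 6.5 CPM in siYTHDC1 and 6.62 to 8.03 CPM in siNC, and the 4 endothelial markers, 2 at that level, to 5.43 to 6.81 CPM in siYTHDC1 and 4.71 to 7.34 CPM in siNC. COL1A1 made up most of the fibroblast sum (87.6 to 92.9 CPM in siYTHDC1 and 74.7 to 81.2 CPM in siNC). CD14 made up most of the immune sum and PECAM1 most of the endothelial sum. The part of these marker differences in the results was not tested.

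Levels are given as CPM, the count scaled to the library size with edgeR's TMM factors, and a gene is said to have risen or fallen when its p-value in edgeR's quasi-likelihood test, adjusted over all 17372 genes tested, was under 0.05. Of the 51 translation factor genes 50 could be tested. Of these, 13 rose and 19 fell, which is 64% called against 53.4% of all tested genes, with 26.3% of all tested genes risen and 27.1% fallen. Called genes were more frequent among abundant genes: among the 10124 genes averaging 10 CPM or more 68.8% were called, and among the 48 translation factor genes at that level 31 were. The share called was therefore near the background of genes of like level. The groups did not overlap in 35 of the 50 genes, against 59.3% of all tested genes, a comparison not matched for level.

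The changes were small and went in both directions. The median log2 fold change was -0.01 over the 50 genes and 0 over all tested genes, and 23 of the 32 called genes (71.9%) moved by less than 0.5 on the log2 scale, against 59.3% of all called genes. None of the translation factor genes reached a log2 fold change of 1 in size, a mark passed by 1363 called genes in all. Together these genes took 1.73% ± 0.0124 of all counts in the siYTHDC1 libraries and 1.73% ± 0.0106 in the siNC libraries (SD, n = 3 each). Replicates lay close together, with a median coefficient of variation of 3.07% within a group, against 7.23% over all tested genes. That comparison was not matched for level: 48 of the 50 genes averaged 10 CPM or more, against 10124 of the 17372 genes tested. CPM is a share of the library, so a change in total RNA per cell cannot be seen. In bulk RNA a lower level also cannot be told apart from fewer cells expressing the gene.

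**Figure D1:**
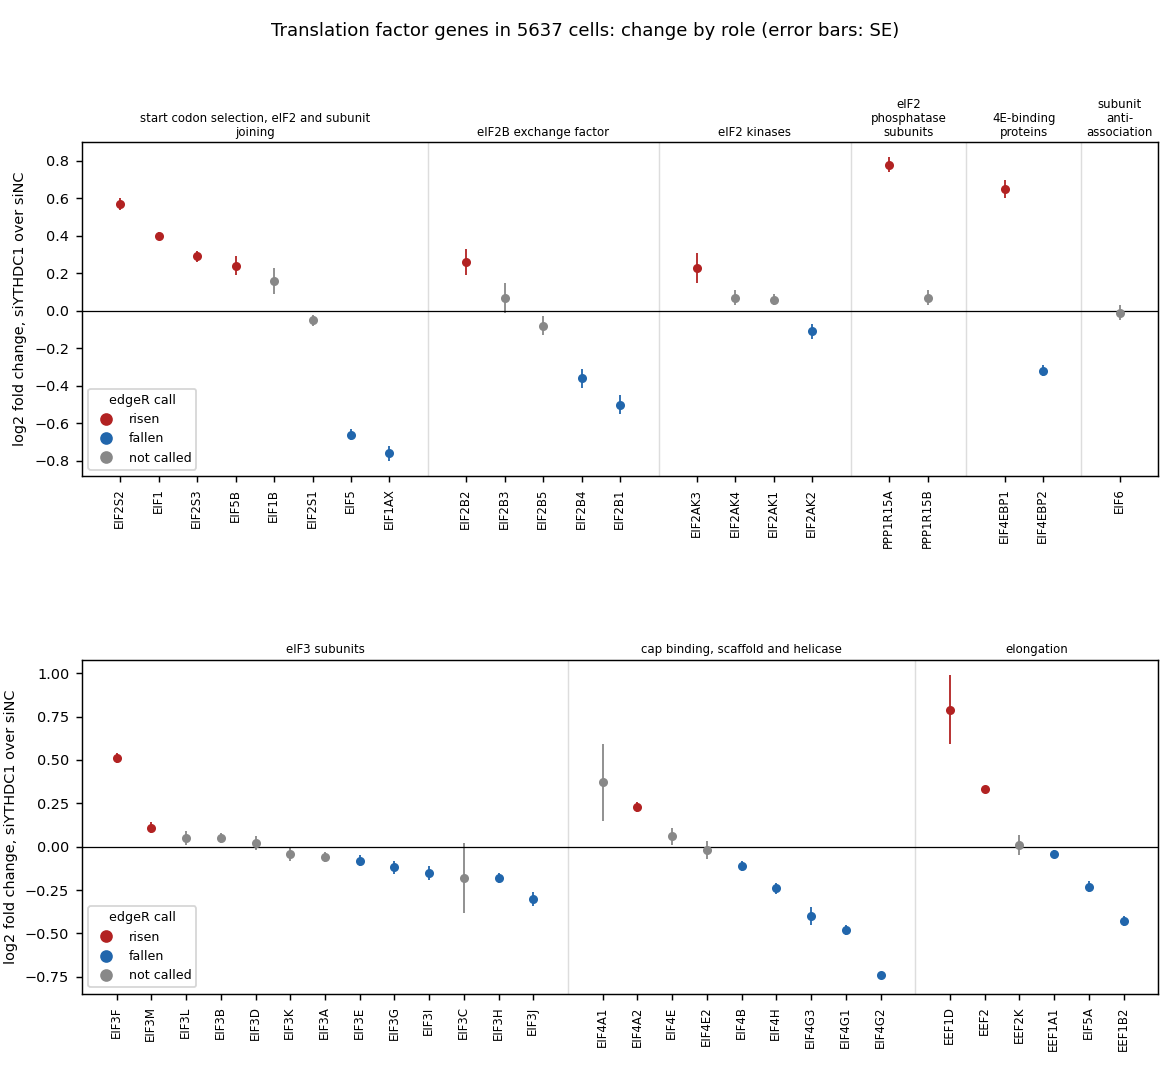
Log2 fold change (siYTHDC1 over siNC) of the 50 tested translation factor genes, grouped by role, with SE as error bars and colour for the edgeR call. Rises and falls stand side by side within most roles, and the values run from EEF1D at 0.79 to EIF1AX at -0.76.

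**Figure D2:**
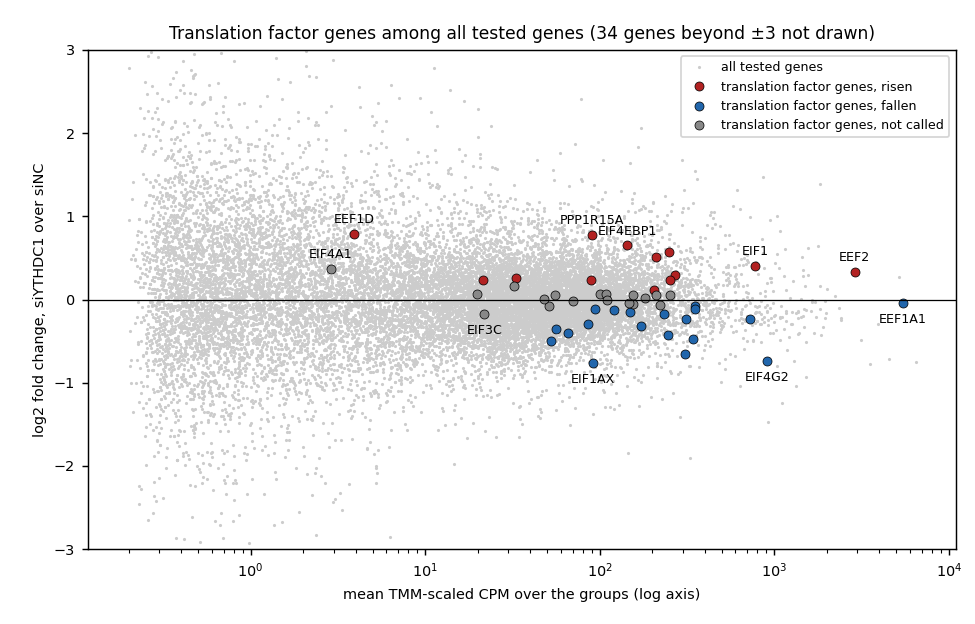
Log2 fold change against mean TMM-scaled CPM (log axis) for all tested genes in grey and the 50 translation factor genes in colour, with 34 genes beyond ±3 not drawn. Most translation factor genes sit among abundant genes and within 1 log2 unit of 0, while EEF1D and EIF4A1 lie far to the left of the rest.

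The factors that control eIF2 phosphorylation showed a single large change. PPP1R15A (chr19:48872392-48876057, plus strand, hg38 with GENCODE 29, as for all gene positions here) encodes GADD34, the stress-inducible subunit that brings protein phosphatase 1 to eIF2 alpha. It had 113, 119 and 109.5 CPM in the siYTHDC1 libraries and 63.3, 68.4 and 67.2 CPM in the siNC libraries. Its lowest siYTHDC1 value lay well above its highest siNC value, and it rose 1.72-fold (log2 fold change 0.78 ± 0.04, SE, edgeR adjusted p = 2.98e-14). PPP1R15B, which encodes the constitutive partner CReP, had 104, 113 and 118 CPM against 109, 105 and 107 CPM in siNC, and its groups overlapped. Its log2 fold change was 0.07 with a 95% interval of -0.02 to 0.15 (edgeR adjusted p = 0.208), and it passed only without siYTHDC1 replicate 1 (0.11, edgeR adjusted p = 0.0303). Per length, the level of PPP1R15A was 36.9 CPM per kb of exon in siYTHDC1 and 21.4 in siNC libraries, and that of PPP1R15B was 21.4 in siYTHDC1 and 20.5 in siNC.

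The bases before the RefSeq start of PPP1R15A are shown because it had the largest change among the abundant translation factor genes. RefSeq promoters (GRCh38.p14) were matched for 42 of the 51 genes and searched on both strands, from 250 bases before to 50 bases after the start, for TGACGTCA (the cAMP response element, CRE), CACGTG (the E-box) and TGATGNAA (the core of the composite site of ATF4 and C/EBP proteins). The 250 bases before the start of PPP1R15A, chr19:48872171-48872420 on the plus strand, hold a CRE, in capitals.
PPP1R15A: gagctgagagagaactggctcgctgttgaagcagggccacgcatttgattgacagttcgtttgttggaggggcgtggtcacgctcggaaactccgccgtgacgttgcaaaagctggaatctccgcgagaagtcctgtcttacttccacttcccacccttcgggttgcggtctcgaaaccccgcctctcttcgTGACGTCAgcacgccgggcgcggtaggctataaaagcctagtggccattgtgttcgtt
The CRE of PPP1R15A begins 58 bases before the start. This motif was in 1.85% of all 35116 promoters, in 3.51% of the 11891 tested genes with a promoter, and in 2 of the 42 translation factor genes. The other carrier was EEF2, at 13 bases before its start. Both genes rose, as did 26.3% of all tested genes, and a link between motif and call was not tested. The ATF4 and C/EBP core was found in PPP1R15B alone among the 42 (2.38%), against 2.8% of the tested genes with a promoter and 3.62% of all promoters. A match is a description of the letters and not evidence of binding. The genes without a matched promoter were EEF1D, EIF2AK1, EIF2S2, EIF3A, EIF3E, EIF3G, EIF3H, EIF3L and EIF4EBP1.

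The 4 eIF2 kinases moved little. EIF2AK3, which encodes PERK, the kinase that senses unfolded protein in the endoplasmic reticulum, had 23.1, 22.0 and 24.3 CPM in the siYTHDC1 libraries and 19.9, 20.9 and 18.5 CPM in the siNC libraries. It rose by 0.23 ± 0.08 on the log2 scale (SE, edgeR adjusted p = 0.0167), a call lost without siNC replicate 3 (edgeR adjusted p = 0.102) and without siYTHDC1 replicate 3 (edgeR adjusted p = 0.0788). EIF2AK2, which encodes PKR, the kinase activated by double-stranded RNA, had 88.0, 89.4 and 93.4 CPM in siYTHDC1 and 97.6, 96.2 and 98.1 CPM in siNC libraries. It fell by 0.11 on the log2 scale (SE 0.04, edgeR adjusted p = 0.0273), and 4 of the 6 leave-one-library-out fits did not call it (edgeR adjusted p up to 0.112). Neither kinase call thus held in every leave-one-library-out fit. EIF2AK1, which encodes the haem-regulated kinase HRI, was the most abundant of the 4 per length (38.7 CPM per kb of exon in siYTHDC1 and 37.1 in siNC), with a log2 fold change of 0.06 and a 95% interval of -0.01 to 0.12. For EIF2AK4, which encodes the amino acid sensor GCN2, the log2 fold change was 0.07 with a 95% interval of -0.02 to 0.16.

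The 3 subunits of eIF2 itself differed from each other. EIF2S2 (chr20:34088298-34112332, minus strand), which encodes the beta subunit, had 302, 294 and 301 CPM in the siYTHDC1 libraries and 202, 203 and 201 CPM in the siNC libraries. The groups were far apart, and it rose 1.48-fold (log2 fold change 0.57 ± 0.03, SE, edgeR adjusted p = 5.31e-15). EIF2S3, the gamma subunit gene, rose by 0.29 ± 0.03 (SE). The alpha subunit, which carries the phosphorylation site, is encoded by EIF2S1, and its log2 fold change was -0.05 with a 95% interval of -0.13 to 0.02 (edgeR adjusted p = 0.199). Of the 75-base words of EIF2S2 18.5% recur in transcripts of other genes, and of those of EIF2S3 11.9%, so reads could be split or discarded there.

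Factors acting at the start codon included the largest fall and several rises. EIF1AX (chrX:20124518-20141844, minus strand), the gene for the scanning factor eIF1A, had 70.5, 65.1 and 69.5 CPM in siYTHDC1 libraries and 115.5, 114 and 117 CPM in siNC libraries. EIF5 (chr14:103333544-103345025, plus strand), whose product stimulates GTP hydrolysis by eIF2, had 238, 234.5 and 245 CPM against 375, 376.5 and 385 CPM in siNC. Both were lower in every siYTHDC1 library than in any siNC library, by 0.76 ± 0.04 for EIF1AX (edgeR adjusted p = 1.74e-14) and 0.66 ± 0.03 for EIF5 (SE, edgeR adjusted p = 1.11e-16) as falls on the log2 scale. EIF1, the gene for a factor that guards start-codon fidelity, rose by 0.40 ± 0.02 (SE), to 881 ± 8.94 CPM in siYTHDC1, against 669 ± 5.00 CPM in siNC libraries (SD, n = 3 each). EIF5B, needed for subunit joining, rose by 0.24 ± 0.05 (SE). EIF1B, a close relative of EIF1 that was far scarcer per length (17.9 against 243 CPM per kb of exon in siYTHDC1 libraries), missed the threshold at 0.16 ± 0.07 (SE, edgeR adjusted p = 0.0687) and passed without siYTHDC1 replicate 1 (edgeR adjusted p = 0.0205) or replicate 3 (edgeR adjusted p = 0.0356).

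The 5 genes of eIF2B, the exchange factor that recharges eIF2, did not move together. EIF2B1, the alpha subunit gene, had 41.6, 45.6 and 43.5 CPM in siYTHDC1 libraries and 62.2, 60.4 and 62.9 CPM in siNC libraries, a fall of 0.50 ± 0.05 on the log2 scale (SE, edgeR adjusted p = 5.03e-09). The delta subunit gene EIF2B4 fell by 0.36 ± 0.05 (SE), and the beta subunit gene EIF2B2 rose by 0.26 ± 0.07 (SE). The gamma and epsilon subunit genes, EIF2B3 and EIF2B5, were not called, with 95% intervals of -0.10 to 0.23 and -0.19 to 0.03. The epsilon subunit is the catalytic one.

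The 3 genes of the eIF4G family all fell, as did 27.1% of all tested genes. EIF4G2 (chr11:10797050-10809110, minus strand) encodes DAP5, a relative of eIF4G that lacks the eIF4E-binding site. It had 665, 678 and 703 CPM in siYTHDC1 libraries and 1144, 1133 and 1133 CPM in siNC libraries. Its siYTHDC1 values were far below all siNC values, and it fell by 0.74 ± 0.02 on the log2 scale (SE, edgeR adjusted p = 1.39e-19). EIF4G1 (chr3:184314495-184335358, plus strand), the main eIF4G gene, had 294, 280.4 and 287 CPM in siYTHDC1 libraries against 392, 408 and 401 CPM in siNC, a fall of 0.48 ± 0.03 (SE, edgeR adjusted p = 9.18e-14). EIF4G3, its paralog, had 55.6, 57.5 and 57.8 CPM against 73.8, 78.9 and 73.6 CPM in siNC, a fall of 0.40 ± 0.05 (SE, edgeR adjusted p = 4.53e-08). The groups were apart in each of the 3 genes, and each kept its call in all 15 alternatives.

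The cap-binding proteins themselves did not pass the test. The log2 fold change was 0.06 for EIF4E (95% interval -0.05 to 0.17, edgeR adjusted p = 0.353) and -0.02 for its relative EIF4E2 (95% interval -0.11 to 0.08, edgeR adjusted p = 0.792). The helicase cofactor genes EIF4B and EIF4H fell by 0.11 ± 0.03 and 0.24 ± 0.03 on the log2 scale (SE). Of the 75-base words of EIF4B 12.7% recur in other genes. EIF4A2, an RNA helicase gene, rose by 0.23 ± 0.03 (SE). EIF4A1, the paralog usually taken as the main helicase gene, had 103, 88 and 143 counts in siYTHDC1 and 80, 84 and 99 counts in siNC libraries, and was not called (edgeR adjusted p = 0.167). That row is uncertain: same-strand exons of other genes cover 48.6% of its exonic sequence, among them the read-through gene SENP3-EIF4A1, whose own row held 32 counts over all 6 libraries.

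The 4E-binding proteins moved in opposite directions. EIF4EBP1, an inhibitor of eIF4E and a known target of ATF4, had 187, 184.5 and 158 CPM in siYTHDC1 libraries and 113, 112 and 112 CPM in siNC libraries. Even the lowest siYTHDC1 library, replicate 3, was above all siNC libraries, and the gene rose 1.57-fold (log2 fold change 0.65 ± 0.05, SE, edgeR adjusted p = 2.89e-12). EIF4EBP2, which encodes a related inhibitor, had 153, 152 and 158 CPM against 193.5, 190.4 and 194 CPM in siNC. It fell by 0.32 ± 0.03 on the log2 scale (SE, edgeR adjusted p = 5.03e-09). Per length the EIF4EBP1 level was 164 CPM per kb of exon in siYTHDC1 and 105 in siNC libraries, and that of EIF4EBP2 was 21.3 in siYTHDC1 and 26.5 in siNC.

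**Figure D3:**
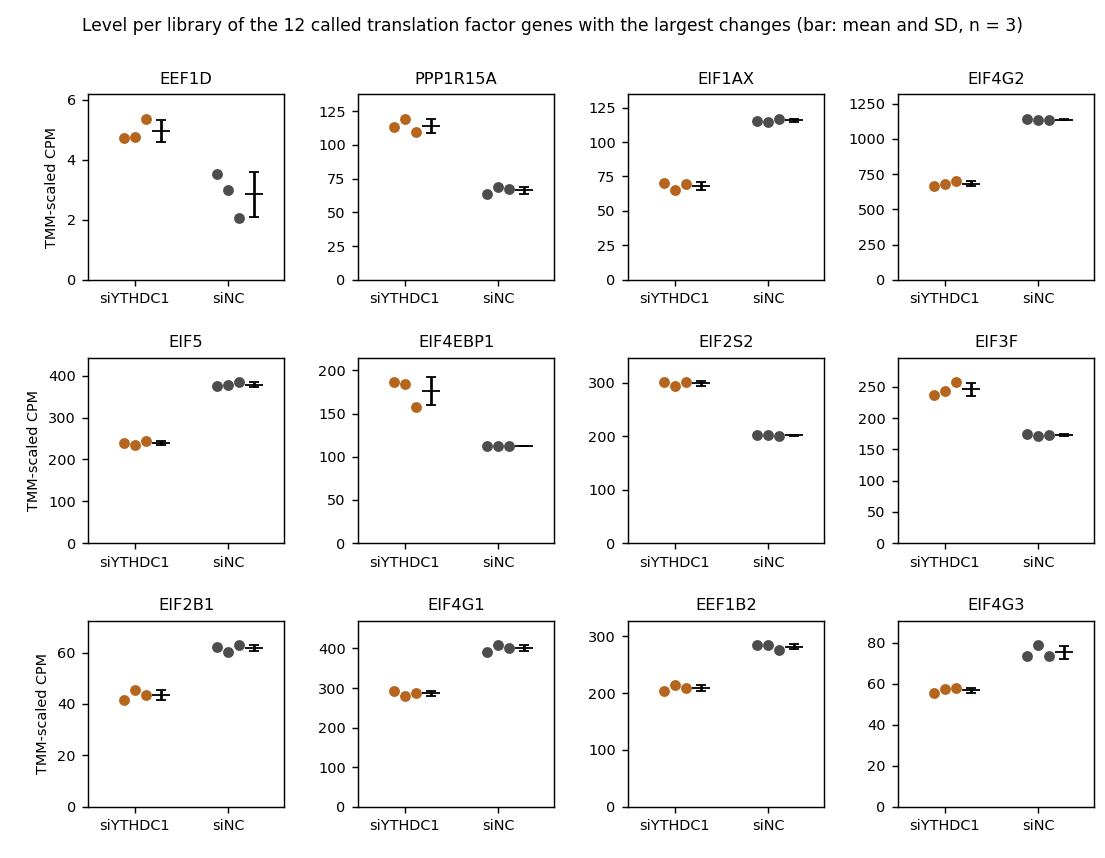
TMM-scaled CPM in each library of the 12 called translation factor genes with the largest changes, siYTHDC1 left and siNC right in each panel, with mean and SD (n = 3 each) beside the points. In each of the 12 panels the 3 siYTHDC1 points lie wholly above or wholly below the 3 siNC points, and the values of EEF1D are under 6 CPM.

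The upstream sequences of EIF4G1 and EIF3F are shown because they hold the E-box, bound by MYC, USF and related factors, and the genes moved in opposite directions. The 250 bases before the RefSeq start are chr3:184314356-184314605 on the plus strand for the most upstream of the EIF4G1 starts and chr11:7987087-7987336 on the plus strand for EIF3F, a gene of the eIF3 complex, with each CACGTG in capitals.
EIF4G1: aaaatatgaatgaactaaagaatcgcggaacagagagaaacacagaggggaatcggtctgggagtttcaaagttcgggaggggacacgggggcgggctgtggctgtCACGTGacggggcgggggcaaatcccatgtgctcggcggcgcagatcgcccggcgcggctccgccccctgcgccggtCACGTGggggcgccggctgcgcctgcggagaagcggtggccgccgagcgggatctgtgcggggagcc
EIF3F: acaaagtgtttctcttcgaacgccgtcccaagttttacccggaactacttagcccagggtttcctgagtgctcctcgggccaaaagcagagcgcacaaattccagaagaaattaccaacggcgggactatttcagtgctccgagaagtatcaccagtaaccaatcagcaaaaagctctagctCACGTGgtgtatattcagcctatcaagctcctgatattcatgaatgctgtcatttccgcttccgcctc
A gene counted as a carrier if any of its RefSeq starts held the motif, and the other EIF4G1 starts held no E-box. The E-box was in 10 of the 42 genes with a promoter (23.8%), against 12.2% of the tested genes with a promoter and 7.26% of all promoters. Of these 10 genes 1 rose (EIF3F), 4 fell (EIF2AK2, EIF4B, EIF4G1 and EIF4H) and 5 were not called. The shares over all tested genes were 26.3% risen and 27.1% fallen, and a link between motif and call was not tested. No motif searched overlapped another in these sequences.

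eIF3, the largest initiation factor, bridges the small ribosomal subunit and eIF4F, and its 13 subunit genes mostly moved little. Of the 13, 2 rose and 5 fell, or 53.8% called against 53.4% of all tested genes, with a median log2 fold change of -0.06. EIF3F (chr11:7970251-8001862, plus strand) stood apart in size: it had 238, 243.5 and 258 CPM in siYTHDC1 libraries and 175, 172 and 173 CPM in siNC libraries, a rise of 0.51 ± 0.03 on the log2 scale (SE, edgeR adjusted p = 7.58e-13). The other rise was EIF3M (0.11 ± 0.03, SE). The falls were EIF3J, a loosely attached subunit (-0.30 ± 0.04), EIF3H (-0.18 ± 0.03), EIF3I (-0.15 ± 0.04), EIF3G (-0.12 ± 0.04) and EIF3E (-0.08 ± 0.03, SE). Without single libraries EIF3E lost its call in 3 of 6 fits (edgeR adjusted p up to 0.125) and EIF3G in 1 of 6, that without siYTHDC1 replicate 3 (edgeR adjusted p = 0.0740).

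The uncalled eIF3 genes were the scaffold subunit genes EIF3A (-0.06) and EIF3B (0.05), EIF3D (0.02), which encodes a subunit with cap-binding activity, EIF3K (-0.04), EIF3L (0.05) and EIF3C (-0.18), as log2 fold changes. EIF3C had 815, 535 and 755 counts in siYTHDC1 and 1360, 538 and 542 counts in siNC libraries, so siNC replicate 1 stood apart from the other siNC libraries. Without it the log2 fold change turned to 0.39 (edgeR adjusted p = 0.0102), and without siNC replicate 2 and siYTHDC1 replicate 1 it was -0.51 (edgeR adjusted p = 0.0376). Of the 75-base words of EIF3C 44.1% recur in other genes, and its near-copy EIF3CL held 652 counts over all libraries, so no direction is drawn for this gene. Same-strand exons of other genes cover 41.1% of the exonic sequence of EIF3L.

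**Figure D4:**
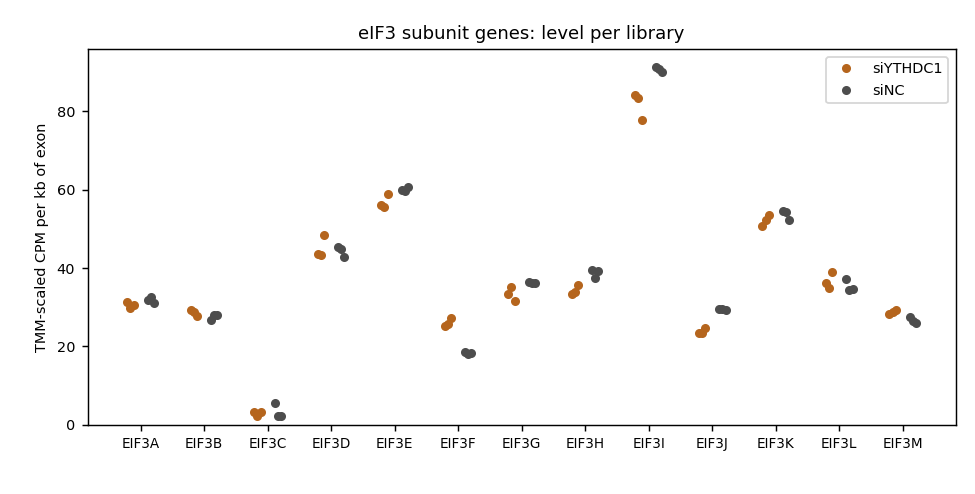
Level of the 13 eIF3 subunit genes in each library, as TMM-scaled CPM per kb of exon, siYTHDC1 left and siNC right of each position. EIF3F is higher in siYTHDC1 (26.1 against 18.3 CPM per kb in siNC), EIF3J is lower (23.9 against 29.4), and 1 siNC library of EIF3C lies above the others.

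The elongation factors hold the most abundant genes of the list. EEF1A1, which encodes the factor that delivers aminoacyl-tRNA to the ribosome, had 5330, 5376 and 5461 CPM in siYTHDC1 libraries and 5660, 5498 and 5515 CPM in siNC libraries. Its fall of 0.04 ± 0.02 on the log2 scale (SE, edgeR adjusted p = 0.0205) was slight. The call was lost under 4 other settings and 3 of 6 leave-one-library-out fits (edgeR adjusted p up to 0.102). It was also lost without siNC replicate 2 and siYTHDC1 replicate 1 together (edgeR adjusted p = 0.120). Of the 75-base words of EEF1A1 17.9% recur in other genes, so reads could be split or discarded there. EEF2, the translocation factor gene, chosen after its values were seen, had 3182, 3222 and 3253 CPM in siYTHDC1 libraries and 2543, 2576 and 2545 CPM in siNC libraries. Its groups were well apart, and it rose 1.26-fold (log2 fold change 0.33 ± 0.02, SE, edgeR adjusted p = 3.83e-15). EEF2K, the kinase that inhibits eEF2, was not called (0.01, 95% interval -0.10 to 0.12). EIF5A, whose product carries hypusine and helps ribosomes through difficult peptide bonds, fell by 0.23 ± 0.03 (SE).

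The genes of the exchange complex that recharges eEF1A are unevenly covered by the counts. EEF1B2, an exchange subunit gene, had 204, 214 and 209 CPM in siYTHDC1 libraries and 284, 284 and 277 CPM in siNC libraries. It fell by 0.43 ± 0.03 on the log2 scale (SE, edgeR adjusted p = 3.33e-12), with 22.4% of its 75-base words recurring in other genes. EEF1D, another exchange subunit gene, had 165, 159 and 184 counts in siYTHDC1 and 125, 103 and 71 counts in siNC libraries. It rose by 0.79 ± 0.20 (SE, edgeR adjusted p = 0.00117), the largest fitted change of the list, but on a level of 0.528 CPM per kb of exon in siYTHDC1 and 0.304 in siNC, where EEF1B2 had 109 in siYTHDC1 and 147 in siNC. In GENCODE 29 exons of genes on the other strand cover 34.0% of the exonic bases of EEF1D and exons on its own strand 0%. The count table also holds genes absent from GENCODE 29, and an overlap with those would not be seen. The strand setting of the counting is not stated, and the source of the low counts was not tested. EEF1G, the structural subunit gene, was listed at 0 counts in all 6 libraries, and exons of a same-strand neighbour (ENSG00000255508), itself with 2 counts in all, cover 99.9% of its exonic sequence. EEF1G was therefore not tested, and its level cannot be read from this table. EIF6, which keeps the large ribosomal subunit from joining too early, was not called (-0.01, 95% interval -0.10 to 0.08). Same-strand exons of another gene cover 17.4% of its exonic sequence.

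Many elongation and eIF3 mRNAs are known to begin with a terminal oligopyrimidine (TOP) tract, a cytosine followed by pyrimidines, through which mTORC1 controls their translation. The starts of the 10 genes with such a tract of at least 5 bases at a RefSeq start are shown, from 8 bases before to 20 bases after it, with the tract in capitals.
EEF1A1: tgaacgttCTTTTTCgcaacgggtttgc
EEF1B2: cttcgggtCCTTTTTCCTCTCTTCagcg
EEF2: tcagcgttCTCTTCCgccgtcgtcgccg
EIF2S3: tttccttcCTCTTTTggcaacatggcgg
EIF3D: catgtttcCTCTTTTCCTggtttctcaa
EIF3F: tccgcctcCTTCTTTCTCgacaagatgg
EIF3K: tccaccacCTCTTCCTgttcccgtcctt
EIF3M: ccagttccCTTTTCCggtcggcgtggtc
EIF4A2: gccgctgtCTTTTCagtcgggcgctgag
EIF4B: atccgggtCTTTTgcgttctctttccct
Of the 42 genes with a promoter 23.8% carried the tract, against 6.94% of the tested genes with a promoter and 4.07% of all promoters. Levels of the 10 carriers did not move together: 5 rose (EEF2, EIF2S3, EIF3F, EIF3M and EIF4A2), 3 fell (EEF1A1, EEF1B2 and EIF4B), and EIF3D and EIF3K were not called. Over all tested genes 26.3% rose and 27.1% fell, and a link between tract and call was not tested. The data measure RNA levels and not translation. On GRCh38.p14 the stretches are EEF1A1 at chr6:73521013-73521040 (minus strand), EEF1B2 at chr2:206159887-206159914 (plus strand), EEF2 at chr19:3985444-3985471 (minus strand), EIF2S3 at chrX:24054948-24054975 (plus strand), EIF3D at chr22:36529147-36529174 (minus strand), EIF3F at chr11:7987329-7987356 (plus strand), EIF3K at chr19:38619180-38619207 (plus strand), EIF3M at chr11:32583823-32583850 (plus strand), EIF4A2 at chr3:186783569-186783596 (plus strand) and EIF4B at chr12:53006448-53006475 (plus strand).

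YTHDC1 reads methylated adenosine, and the frequent methylation core GGACT was counted in the longest coding transcript of each gene in GENCODE 29. The median was 0.93 matches per kb in the 13 risen and 0.72 in the 19 fallen translation factor genes, against 0.94 over all tested coding genes. The middle part of all tested coding genes, from the lower to the upper quartile, ran from 0.58 to 1.39, and both medians lay within it. These are counts of letters, and methylation was not measured.

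Other genes of translation and its control, 86 in 8 lists, were about evenly split: 26 rose and 25 fell of 85 tested, 60% called against 53.4% of all tested genes. Among other translation factor genes 5 of 16 rose and 5 fell. PDCD4, an inhibitor of the eIF4A helicase, fell by 0.90 ± 0.08 on the log2 scale, the scanning helicase genes DDX3X and DHX29 by 0.38 ± 0.03 and 0.35 ± 0.09, and EIF2D, a recycling factor gene, rose by 0.36 ± 0.05 (SE). Without siNC replicate 2 and siYTHDC1 replicate 1 together DHX29 was not called (-0.17, edgeR adjusted p = 0.136). In the termination and rescue list 1 of 6 rose and 3 fell. ETF1, which encodes the stop-codon reader eRF1, fell by 0.41 ± 0.04, and its GTPase partner genes differed, GSPT2 falling by 0.67 ± 0.08 and GSPT1 rising by 0.13 ± 0.04 (SE). HBS1L, a ribosome rescue factor gene, fell by 0.20 ± 0.04 (SE). The GSPT1 call was lost without siNC replicate 3 (edgeR adjusted p = 0.0543) and without siYTHDC1 replicate 3 (edgeR adjusted p = 0.0650).

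Of the 6 poly(A)-binding protein and partner genes 3 rose and 2 fell, or 83.3% called against 53.4% of all tested genes. PABPC1, the main cytoplasmic poly(A)-binding protein gene, rose to 1605 ± 65.9 CPM in siYTHDC1, against 1320 ± 15.8 CPM in siNC libraries (SD, n = 3 each), and PABPC4 rose by 0.31 ± 0.04 on the log2 scale (SE). PAIP1, an activator that binds the poly(A)-binding protein, fell by 0.30 ± 0.04, and PAIP2B, an inhibitor, rose by 0.53 ± 0.08 (SE). Among 14 enzymes that modify elongation factors 2 rose and 5 fell, or 50% called. The falls included the lysine methyltransferase gene EEF1AKMT1 (-0.66 ± 0.15) and the diphthamide synthesis gene DPH1 (-0.48 ± 0.12). The rises were EEF1AKMT3 (0.44 ± 0.13) and DPH5 (0.39 ± 0.09, SE). EEF1AKMT3 was not called without siNC replicate 2 and siYTHDC1 replicate 1 together (0.37, edgeR adjusted p = 0.0739), and same-strand exons of another gene cover 19.5% of the exonic sequence of DPH1.

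In the mTORC1 list 2 of 17 genes rose and 7 fell, or 52.9% called against 53.4% of all tested genes. MKNK2, a kinase that phosphorylates eIF4E, had the largest rise of that list, to 411 ± 5.83 CPM in siYTHDC1 against 192 ± 0.940 CPM in siNC libraries (SD, n = 3 each). On the log2 scale that is a rise of 1.10 ± 0.03 (SE, edgeR adjusted p = 1.28e-21). SESN2, an inhibitor of mTORC1 in amino acid shortage, rose by 0.57 ± 0.05, while its relative SESN1 and the stress inhibitor gene DDIT4 fell by 0.55 ± 0.08 and 0.51 ± 0.03 on the log2 scale (SE). The other falls of that list, named after their values were seen, were RPS6KB1 (-0.50), RPTOR (-0.44), MTOR (-0.33), TSC1 (-0.31) and TSC2 (-0.25), as log2 fold changes. Among 9 regulators of the eIF2 kinases and phosphatase 4 rose and 3 fell, or 77.8% called. The catalytic phosphatase 1 genes PPP1CC (0.25 ± 0.04) and PPP1CA (-0.31 ± 0.03) moved apart, and DNAJC3, an inhibitor of PERK, rose by 0.21 ± 0.04, as did IMPACT, an inhibitor of GCN2 activation, by 0.21 ± 0.08 (SE). IMPACT was not called in 4 of 6 leave-one-library-out fits (edgeR adjusted p up to 0.158).

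Of 11 mitochondrial translation factor genes 4 rose and 0 fell, or 36.4% called. The rises were MTRF1 (0.55 ± 0.12), MTIF3 (0.46 ± 0.10), GFM2 (0.34 ± 0.07) and TUFM (0.09 ± 0.04, SE), and TUFM was not called in 4 of 6 leave-one-library-out fits (edgeR adjusted p up to 0.262). In the 6 read-outs of the ATF4 branch, known from earlier results on these data to be higher, 5 rose and 0 fell. Of all tested genes 26.3% rose and 27.1% fell. The remaining read-out, CHAC1, missed the threshold at 0.22 ± 0.09 (SE, edgeR adjusted p = 0.0514), with overlapping groups. ATF4, named after its values were seen, rose by 0.62 ± 0.03, and its target genes TRIB3, ATF3, DDIT3 and ASNS by 0.62 ± 0.05, 0.75 ± 0.08, 1.36 ± 0.15 and 2.42 ± 0.14 (SE). ASNS had 422, 376 and 427 counts in siYTHDC1 and 68, 78 and 87 counts in siNC libraries. Its row is uncertain in the way of EIF4A1: same-strand exons of ENSG00000284707 cover 44.6% of its exonic sequence, and 38.7% of its 75-base words recur in other genes.

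**Figure D5:**
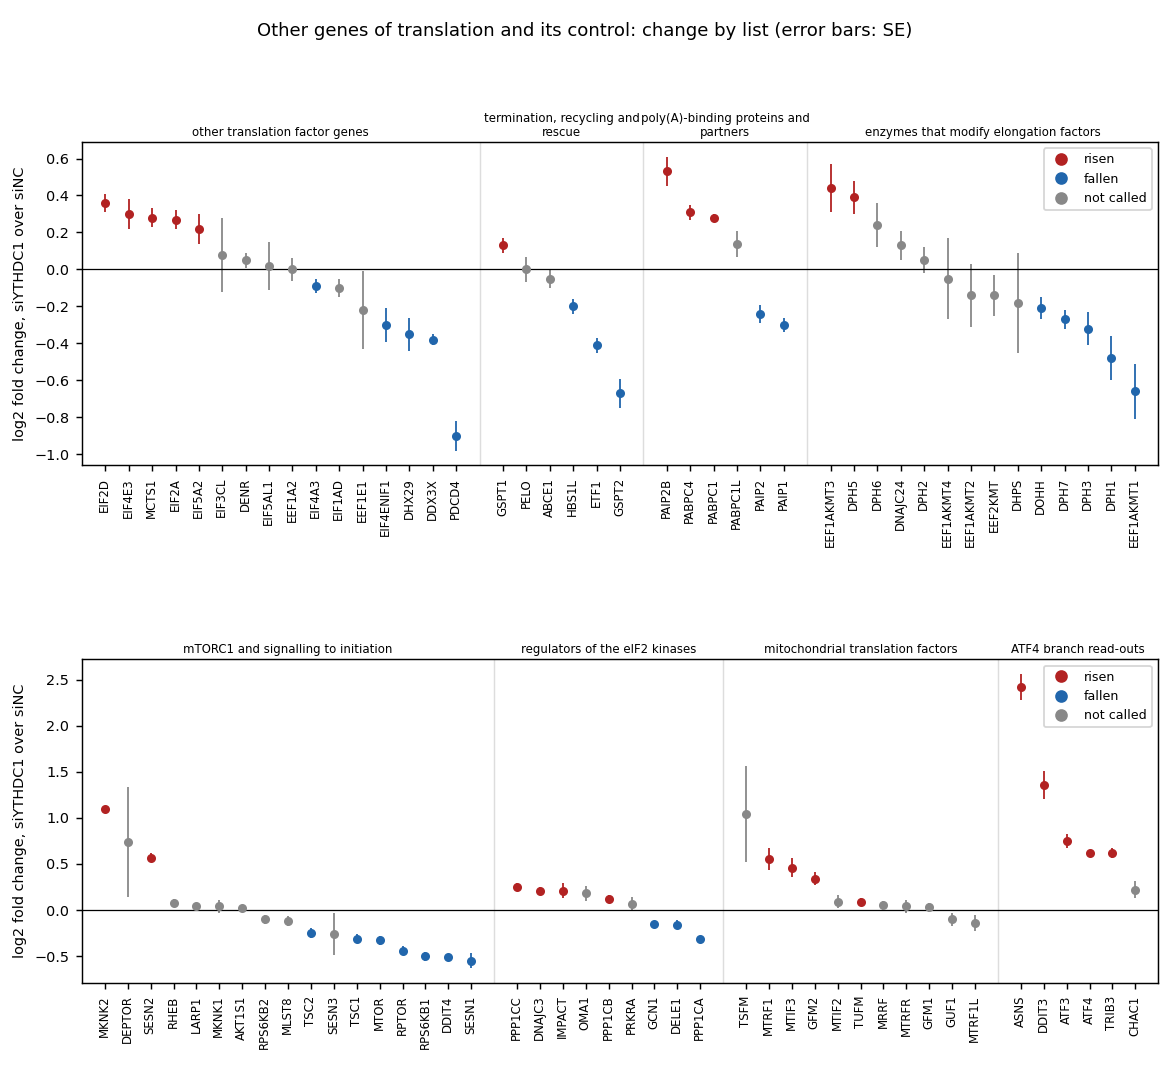
Log2 fold change (siYTHDC1 over siNC) with SE for the 85 tested genes of the other 8 lists, coloured by edgeR call. Most lists hold genes on both sides of 0, while the called genes of the mitochondrial and ATF4 lists lie above 0, up to 2.42 for ASNS.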

How the data were processed

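RNA libraries of 5637 cells were made with a directional kit, per the labels' protocols. The authors deposited a table of unnormalised counts with Ensembl genes as rows and libraries as columns. The submitters' processing notes name hg38, and no aligner, counting tool or strand setting is stated in what was used here. Columns were matched to libraries by name, and 0 columns of per-sample values were left unused.

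edgeR 4.0.16 (R 4.3.3) tested the counts by quasi-likelihood, with TMM scaling, the default filter on low counts, all 6 libraries and group as the only term. The Benjamini-Hochberg adjustment covered every gene tested. SE is the log2 fold change over the square root of the F statistic. The fit was tested on simulated data. DESeq2 1.42.0, limma-voom (limma 3.58.1), other scalings and filters, a replicate block and left-out libraries were alternatives. Ensembl identifiers were matched to symbols, and positions, exon overlaps and 75-base words were taken from GENCODE 29. Promoter sequences came from RefSeq.

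The genes, the lists and the rule for named genes were chosen with earlier results of these data known. The naming rule gave full statistics to the 12 called genes with the largest changes, the eIF2 kinases, the phosphatase subunits and the 4E-binding proteins, and up to 4 called genes of each other list.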

Additional observations from a re-analysis of the deposited data

How the results depend on the processing

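The counts of risen and fallen translation factor genes were 13 and 19, and ran from 12 to 15 and from 16 to 19 over the 15 alternatives. Of the 32 called genes 27 kept their call in each alternative. The other 5 were EEF1A1, EIF2AK2, EIF2AK3, EIF3E and EIF3G, and the cause of their losses was not tested. YTHDC1 lost its call with limma-voom (-1.83, limma adjusted p = 0.0861), and DESeq2 returned no adjusted p-value for it. Its log2 fold change ran from -4.17 to 0.31 when a library was left out. EIF3C ran likewise from -0.40 to 0.39, the highest being without siNC replicate 1. The replicate numbers did not pair the libraries (correlations of same-numbered deviations 0.005, -0.007 and -0.017), and with the replicate block 13 genes rose and 19 fell. Counts of EEF1D and EIF4A1 were low at the same depth as the other genes, which limits the precision of their values.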
